A study of Homo sapiens with 12 samples.

Results

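The comparison described here asked how splicing and read abundance differed when endogenous TIP60 was depleted in MCF10A cells that did or did not carry a wild-type copy of it. Libraries 1 and 2 of WT-TIP60 cells given TIP60 siRNA were set against libraries 1 and 2 of MSCV cells given the same siRNA, each paired by its number. WT-TIP60 cells stably expressed a wild-type TIP60 that the siRNA cannot target, and MSCV cells carried the empty vector. Both lines were MCF10A, an immortalised, non-tumorigenic human breast epithelial line, and all RNA was taken 72 h after transfection. The series as a whole had 12 libraries in 6 groups, 2 per group. The other 8 libraries were WT-TIP60 and MSCV cells under control siRNA, and cells with a resistant but catalytically dead copy (KD-TIP60, where KD stands for that dead copy and not for knockdown) under either siRNA. Whether a line was 1 clone or a pool, and whether libraries 1 and 2 came from separate cultures, is not given in the sources used here, so p-values measure only the spread between these libraries. An event is a cassette exon with the exon on either side of it, and its inclusion level is the share, from 0 to 1, of its transcripts that contain the exon. Of 8712 events listed in any library, 3134 had at least 10 isoform-specific reads, that is reads fitting only the form with or only the form without the exon, in each of the 4 libraries. They lay in 2141 genes, apart from 184 events on alternate or unplaced contigs.

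TIP60, the product of KAT5, is a lysine acetyltransferase that works in the NuA4/TIP60 complex. It acetylates histones H4 and H2A and proteins such as ATM and p53, and is best known for its part in the response to DNA breaks and in transcription. Cassette exons are included or skipped according to splicing factors, their binding sites in the pre-mRNA and the speed and chromatin setting of transcription, and an exon whose length is a multiple of 3 can be skipped without shifting the reading frame.

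The libraries numbered 1 were deeper than those numbered 2. Reads fitting at least 1 form of an event summed to 2187228 and 1497480 in the WT-TIP60 libraries, against 1985994 and 1319097 in the MSCV libraries. The median event had 27 and 16 isoform-specific reads in WT-TIP60 cells and 21 and 16 in MSCV cells. Across events, inclusion correlated better between the lines within a number (r = 0.977 and 0.975) than between the numbers within a line (r = 0.919 in WT-TIP60 and 0.912 in MSCV). These correlations are across events, which are not independent replicates. The 12 of 33 listed epithelial markers with an event, each taken by its most abundant event, summed to 25285 and 19531.5 reads per 1000000 event reads (RPM) in WT-TIP60 cells, against 25958.8 and 18512.7 RPM in MSCV cells. S100A2 made up most of each sum, and without it the sums were 4312.3 and 3622.1 RPM in WT-TIP60 cells, against 2367.6 and 3391 RPM in MSCV cells. GRHL1 was the only one at 0, in 1 WT-TIP60 and both MSCV libraries. The 5 of 22 listed mesenchymal genes with an event summed to 272.9 and 177 RPM in WT-TIP60 cells and to 562.4 and 240.3 RPM in MSCV cells, with ZEB2 at 0 in all 4 libraries. The lower sums in WT-TIP60 cells came from FN1. Without it, the libraries numbered 1 held 70.4 RPM in WT-TIP60 cells and 50.4 RPM in MSCV cells. In the libraries numbered 2, DCN alone stood at 160.9 RPM in WT-TIP60 cells, against 104.6 RPM for all the listed genes but FN1 in MSCV cells. Of 18 listed immune genes, 2 had an event, CSF1R and LYZ; their sum was 8.23 and 31.4 RPM in WT-TIP60 cells, and both were at 0 in MSCV cells.

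The KAT5 exon showed the copy in both WT-TIP60 libraries, and the depletion only on few reads. This coding exon, 156 nt long, lies at chromosome 11, 65713348 to 65713503, plus strand (hg38), and KAT5 transcripts occur with and without it. The form without the exon had 3618 and 115 reads in WT-TIP60 cells, or 1654.1 and 76.8 RPM, against 5 and 0 reads in MSCV cells. Relative to MSCV cells it was thus 657-fold higher in the libraries numbered 1 and at least 33.8-fold higher in those numbered 2, where 3 reads stand for the MSCV count of 0. The form with the exon had 6 and 2 reads in WT-TIP60 cells (2.74 and 1.34 RPM) and 5 and 2 reads in MSCV cells (2.52 and 1.52 RPM). Under control siRNA that form stood at 11.6 and 5.31 RPM in WT-TIP60 cells and at 17.2 and 5.84 RPM in MSCV cells. In the libraries numbered 2 of each line, this was 2 reads under TIP60 siRNA against 8 under control siRNA. The form with the exon was therefore low in both depleted lines, at a depth of a few reads, while the form without it was abundant in WT-TIP60 cells and nearly absent from MSCV cells. Its level also differed between the WT-TIP60 libraries, being far higher in the library numbered 1, as it was under control siRNA (2290.7 and 93 RPM). Read intervals and floors cover counting error only. KAT5 itself was not among the 3134 events, because MSCV library 2 had only 2 isoform-specific reads there.

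**Figure D1:**
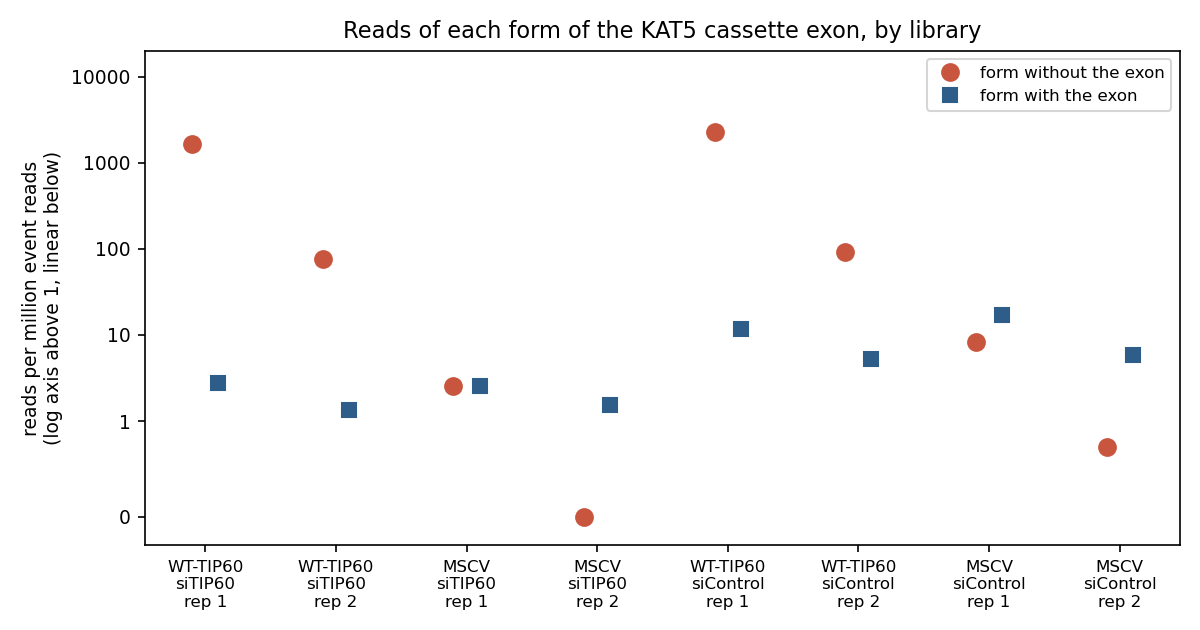
Reads of the KAT5 transcript form without (circles) and with (squares) the 156 nt exon, in RPM, on an axis that is logarithmic above 1. The form without the exon lies at 1654.1 and 76.8 RPM in WT-TIP60 cells and at 2.52 and 0 RPM in MSCV cells under TIP60 siRNA, while the form with the exon lies between 1.34 and 2.74 RPM in those 4 libraries.

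6 coding exons serve as examples of the contrasting patterns below. In the first 3, inclusion did not overlap between WT-TIP60 and MSCV cells. In the other 3, which respond to the siRNA in the KD-TIP60 line or were described as responders for the series, both depleted lines stood far from the control siRNA level. Each sequence is written 5′ to 3′ on the strand of the gene, from GENCODE 29 transcripts (GRCh38), with the cassette exon in capitals and the adjoining 15 bases of the neighbouring exons in lower case.
DIAPH1, chr5:141588224-141588250, minus strand, 27 nt: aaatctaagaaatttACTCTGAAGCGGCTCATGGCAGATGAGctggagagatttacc
EIF4H, chr7:74190247-74190306, plus strand, 60 nt: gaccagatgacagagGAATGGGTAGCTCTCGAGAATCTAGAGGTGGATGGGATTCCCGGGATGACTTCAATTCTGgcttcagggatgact
HDAC7, chr12:47802224-47802274, minus strand, 51 nt: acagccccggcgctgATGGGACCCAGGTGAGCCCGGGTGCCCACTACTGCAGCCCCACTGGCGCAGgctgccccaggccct
MARK3, chr14:103498502-103498528, plus strand, 27 nt: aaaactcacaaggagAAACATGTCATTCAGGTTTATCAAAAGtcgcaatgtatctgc
PPP3CB, chr10:73439872-73439901, minus strand, 30 nt: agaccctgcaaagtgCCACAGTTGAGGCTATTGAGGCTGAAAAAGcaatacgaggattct
ADD3, chr10:110132305-110132400, plus strand, 96 nt: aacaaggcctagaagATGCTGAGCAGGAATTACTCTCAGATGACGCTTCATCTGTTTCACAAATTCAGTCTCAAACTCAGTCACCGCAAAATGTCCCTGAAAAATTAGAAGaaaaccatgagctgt
All 6 exons have a length that is a multiple of 3. Their GC content ran from 29.6% in MARK3 to 70.6% in HDAC7, with 55.6% in DIAPH1.

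No exon passed the threshold for a difference in inclusion between WT-TIP60 and MSCV cells under TIP60 siRNA. The test was limma with the library number as a block, two-sided, with Benjamini-Hochberg adjustment over 3134 events, and it called 0 events (0%) at an adjusted p under 0.05. At an unadjusted p under 0.05 there were 162 events, 5.17% of those tested, with 89 higher in WT-TIP60 cells (2.84%) and 73 lower (2.33%). At an unadjusted p under 0.01 there were 38 (1.21%), of which 27 were higher (0.862%) and 11 lower (0.351%). The libraries of the lines did not overlap for 470 events (15%). They lay at least 0.1 apart for 41 events (1.31%), 17 higher in WT-TIP60 cells (0.542%) and 24 lower (0.766%), and both numbered pairs differed by at least 0.1 in one direction for 86 events (2.74%). With 2 libraries against 2, an exact permutation test of a single exon that ignores the pairs cannot give a two-sided p below 0.333. One that keeps the pairs has fewer arrangements and cannot go that low. The values that follow are therefore descriptions of 20 exons, those of smallest p among the exons whose libraries did not overlap, and 14 were higher and 6 lower in WT-TIP60 cells.

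The widest gap among them was in SLC37A2, an endoplasmic reticulum transporter that exchanges glucose-6-phosphate for phosphate. Its 57 nt exon (chromosome 11, 125086204 to 125086260, plus strand) had an inclusion level of 0.64 in both WT-TIP60 libraries, against 0.12 and 0.2 in the MSCV libraries. The WT-TIP60 values lay beside the 0.58 and 0.68 of MSCV cells under control siRNA, and those of depleted KD-TIP60 cells were 0.13 and 0.15. The difference was 0.48 ± 0.0752 (SE), with an adjusted p of 0.605 by limma. In reads, 62 and 19 fitted only the form with the exon and 21 and 4 only the form without it in WT-TIP60 cells, against 15 and 15 with and 61 and 27 without in MSCV cells.

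DIAPH1 encodes a formin that nucleates actin filaments. Its 27 nt exon was included at 0.94 and 0.92 in WT-TIP60 cells, against 0.74 and 0.83 in MSCV cells. MSCV cells under control siRNA stood at 0.97 and 0.99, and depleted KD-TIP60 cells at 0.82 and 0.84. The difference of 0.145 ± 0.0245 (SE) had an adjusted p of 0.605. HDLBP, an RNA-binding protein known as vigilin, had a 207 nt exon at 0.97 and 0.95 in WT-TIP60 cells and at 0.91 and 0.86 in MSCV cells, against 0.99 in both MSCV libraries under control siRNA. In both exons the WT-TIP60 values lay above the MSCV values and below the control siRNA values.

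EIF4H, a cofactor of the helicase that unwinds mRNA for translation initiation, included its 60 nt exon at 0.25 and 0.24 in WT-TIP60 cells, against 0.4 and 0.44 in MSCV cells. MSCV cells under control siRNA stood at 0.18 and 0.24, and depleted KD-TIP60 cells at 0.19 and 0.25. MSCV cells under TIP60 siRNA were thus the high ones here, and the dead-copy line did not share their level. The difference was -0.175 ± 0.0294 (SE), with an adjusted p of 0.605. Under control siRNA the lines differed the same way, by -0.075, with WT-TIP60 cells at 0.09 and 0.18. HDAC7, a class IIa histone deacetylase, rested on fewer reads: its 51 nt exon stood at 0.57 and 0.49 in WT-TIP60 cells and at 0.87 and 0.71 in MSCV cells, with 0.69 and 0.46 in MSCV cells under control siRNA and 0.74 and 0.46 in depleted KD-TIP60 cells. Those levels rested on 33 and 11 isoform-specific reads in WT-TIP60 cells and on 19 and 18 in MSCV cells, and depleted KD-TIP60 library 2, with 7, did not enter the fit. DEPDC1, a gene of mitotic cells, had an 852 nt coding exon at 0.2 and 0.23 in WT-TIP60 cells and at 0.48 and 0.56 in MSCV cells, against 0.12 and 0.09 under control siRNA.

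GNE, which makes the precursor of sialic acid, included a 206 nt exon at 0.91 and 0.93 in WT-TIP60 cells, against 0.74 and 0.68 in MSCV cells. Its depth was low, with 33 and 25 isoform-specific reads in WT-TIP60 cells and 11 and 22 in MSCV cells. Depleted KD-TIP60 cells stood at 0.85 and 0.83, and MSCV cells under control siRNA at 0.89 and 0.8. ARAP1, a GTPase-activating protein, had its 183 nt exon at 0.44 and 0.74 in WT-TIP60 cells, against 0.75 and 0.87 in MSCV cells. MSCV cells under control siRNA stood at 0.72 and 0.91, and depleted KD-TIP60 cells at 0.56 and 0.83. In GNE and ARAP1 the lines were separated by 0.01 or more, but in ARAP1 WT-TIP60 library 2 lay almost level with MSCV library 1. Like ARAP1, DST, a plakin that links the cytoskeleton to hemidesmosomes, lay further from the control siRNA level in WT-TIP60 cells. Its 111 nt exon stood at 0.82 and 0.73 in WT-TIP60 cells, against 0.93 and 0.85 in MSCV cells and 0.97 and 0.91 in MSCV cells under control siRNA.

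CASP1, the inflammatory caspase, had a 144 nt exon at 0.95 and 0.94 in WT-TIP60 cells, against 0.8 and 0.85 in MSCV cells. Another CASP1 exon, of 63 nt, differed the other way, at 0.7 in both WT-TIP60 libraries, against 0.76 and 0.93 in MSCV cells, with an adjusted p of 0.9. CFLAR, an inhibitor of caspase-8, had a 418 nt exon at 0.98 and 0.94 in WT-TIP60 cells, against 0.91 and 0.88 in MSCV cells. The autophagy genes BECN1 and ATG12 had exons at 0.91 and 0.92 (BECN1) and at 0.98 and 0.97 (ATG12) in WT-TIP60 cells, against 0.81 and 0.84 (BECN1) and 0.92 and 0.93 (ATG12) in MSCV cells. WT-TIP60 cells stood above MSCV cells by 0.12 in the 144 nt exon of CASP1, 0.065 in CFLAR, 0.09 in BECN1 and 0.05 in ATG12. None had an adjusted p under 0.639. Depleted KD-TIP60 cells stood at 0.93 and 0.92 in that CASP1 exon and at 0.97 and 0.95 in CFLAR. In BECN1 they stood at 0.87 and 0.94, and in ATG12 at 0.97 and 0.95. The dead-copy line thus also lay above depleted MSCV cells in each of these exons, without overlap.

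The smallest p of all belonged to COMMD4, a COMM-domain protein, with an adjusted p of 0.361 by limma. Its 177 nt exon was included at 0.93 and 0.97 in WT-TIP60 cells, against 0.85 and 0.88 in MSCV cells. Depleted KD-TIP60 cells stood at 0.91 and 0.95. Of the remaining exons, WBP2, CAMLG, NKIRAS2 and MAZ were also higher in WT-TIP60 cells, by 0.11 (0.069 without MSCV library 2), 0.1, 0.16 and 0.09. The NKIRAS2 difference between the same lines was 0.135 under control siRNA. Depleted KD-TIP60 cells stood at 0.91 and 0.95 in WBP2, 0.93 and 0.91 in CAMLG and 0.83 and 0.72 in NKIRAS2. ERP29, a chaperone of the endoplasmic reticulum, was lower in WT-TIP60 cells by 0.115 (0.83 and 0.81 against 0.97 and 0.9). The 161 nt exon of HNRNPC, a pre-mRNA binding protein, stood at 1.0 in both WT-TIP60 libraries and at 0.99 in both MSCV libraries, a single step of the deposited rounding. Adjusted p ran from 0.361 to 0.779 over the 20 exons. Of the 27 events higher at an unadjusted p under 0.01, 85.2% were coding and 59.3% kept the reading frame. Of the 11 lower events, 72.7% were coding and 72.7% kept the frame, beside 75.7% and 56.9% of all tested events on primary chromosomes.

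**Figure D2:**
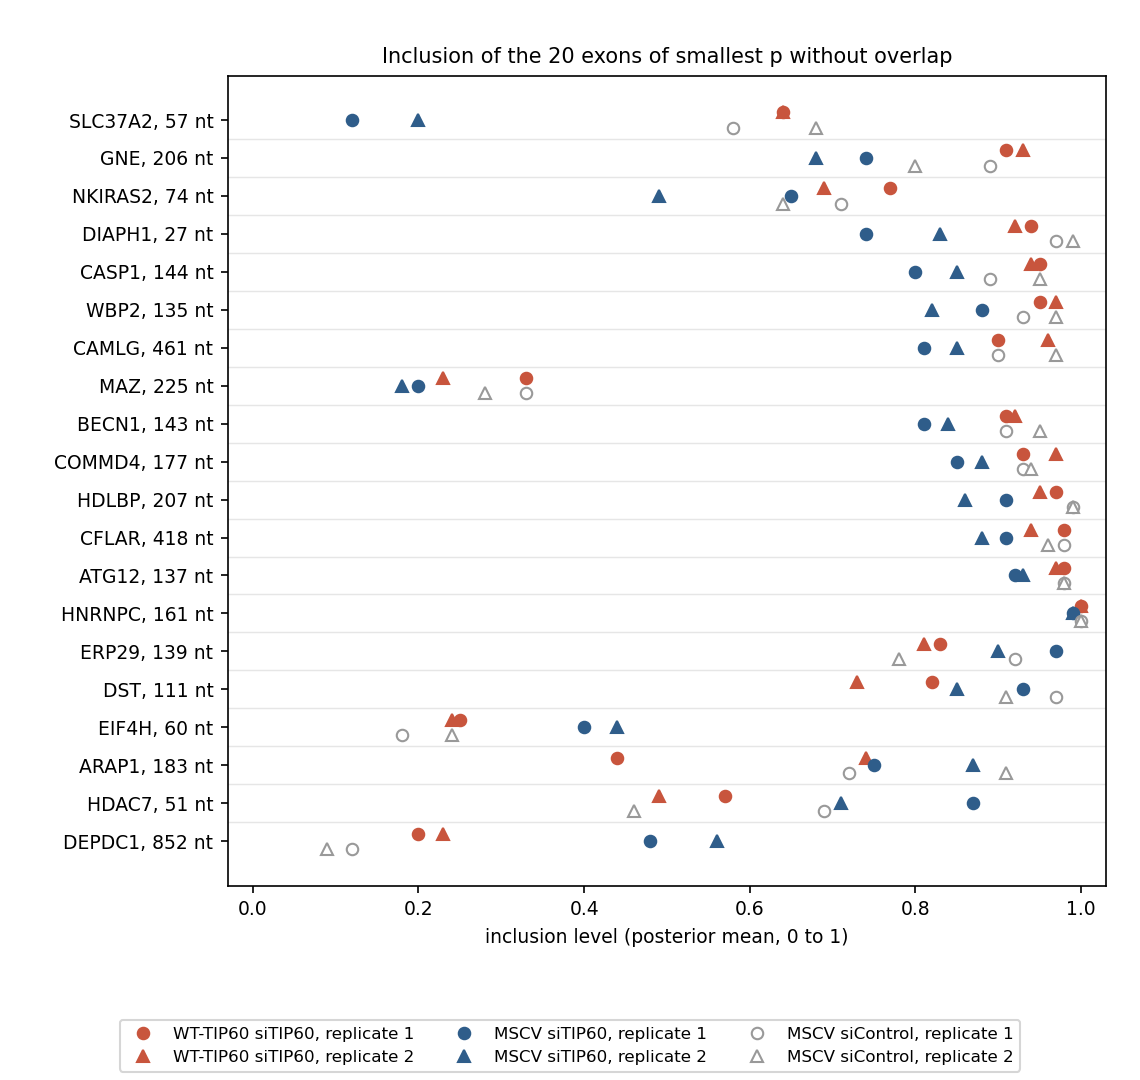
Inclusion level, from 0 to 1, of the 20 exons of smallest p whose libraries did not overlap between WT-TIP60 (red) and MSCV (blue) cells under TIP60 siRNA, with MSCV cells under control siRNA in open grey symbols; each symbol is 1 library. SLC37A2 at the top lies at 0.64 in WT-TIP60 cells against 0.12 and 0.2 in MSCV cells, and DEPDC1 at the bottom at 0.2 and 0.23 against 0.48 and 0.56.

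A model of the reads themselves called a few exons that limma on levels did not. A quasi-binomial model of isoform-specific reads with the same block, adjusted by the Benjamini-Hochberg method, called 12 of 3134 events. The call was for SLC37A2 (adjusted p = 8.42e-06), MAZ (0.00169), ERP29 (0.0176), SIRT3 (0.0257), DIAPH1 (0.0265), TYMP (0.0306), ITGA6 (0.0398), PAK4 (0.0398) and 4 events of LRRC75A-AS1, a non-coding gene. Most of these LRRC75A-AS1 events shared the same reads without the exon, 1352 and 1 in WT-TIP60 cells and 930 and 3 in MSCV cells. Their calls are therefore not independent. SIRT3, a mitochondrial deacetylase, had its 192 nt exon at 0.95 and 0.76 in WT-TIP60 cells, against 0.68 and 0.49 in MSCV cells and 0.96 and 0.95 in MSCV cells under control siRNA. ITGA6, the laminin-binding integrin alpha 6, had its 130 nt exon at 0.78 and 0.88 in WT-TIP60 cells and 0.57 and 0.8 in MSCV cells, against 0.9 and 0.96 in MSCV cells under control siRNA. Within each number WT-TIP60 was the higher line for both exons; the libraries of the lines did not overlap for SIRT3 and did for ITGA6. TYMP, a thymidine phosphorylase, had its exon at 0.06 and 0.55 in WT-TIP60 cells, against 0.03 and 0.21 in MSCV cells. PAK4, a kinase that acts on actin, had its exon at 0.74 and 0.89 in WT-TIP60 cells and at 0.81 and 0.76 in MSCV cells, so its pairs differed in direction. This model differs from limma on levels in weighting each library by its reads, and it is an alternative to the test named first.

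Exons that respond to TIP60 depletion stood mostly at the depleted level in both lines. In the KD-TIP60 line, whose libraries are in neither group compared here, TIP60 siRNA changed 10 exons at an adjusted p under 0.05 by limma (0.32% of 3125). Of these 10 exons, 7 differed between WT-TIP60 and MSCV cells toward their control siRNA level and 3 away from it. The median difference toward control was 0.04, against a median change of 0.378 with siRNA in KD-TIP60 cells. The background was the 2691 tested events on primary chromosomes with a nonzero change in that line. Of these, 1392 (51.7%) differed toward control, 1091 away from it and 208 not at all, with a median of 0.005. Taken pair by pair, 5 of the 10 exons differed toward control in the libraries numbered 1 and 6 in those numbered 2. With the wider list of 120 exons at an unadjusted p under 0.01, 74 (61.7%) differed toward control, with a median of 0.015. Of the others, 39 differed away from it and 7 not at all.

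MARK3, a kinase of microtubule-associated proteins, included its 27 nt exon at 0.11 and 0.02 in WT-TIP60 cells and at 0.02 in both MSCV libraries, against 0.36 and 0.41 in MSCV cells under control siRNA. MYL6, a myosin light chain, had its 45 nt exon at 0.33 and 0.3 in WT-TIP60 cells and at 0.22 and 0.26 in MSCV cells, against 0.63 and 0.86 under control siRNA. ARHGAP17, a GTPase-activating protein, stood at 0.07 and 0.36 in WT-TIP60 cells and at 0.11 and 0.37 in MSCV cells, against 0.59 and 0.77 under control siRNA. In these 3 exons the difference between the depleted lines was small beside the distance of both from control siRNA, and MYL6 alone had lines that did not overlap.

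SBF1, a pseudophosphatase of the myotubularin family, stood at 0.12 and 0.34 in WT-TIP60 cells and at 0.14 and 0.22 in MSCV cells, against 0.58 and 0.72 under control siRNA. ABI1, an adaptor of the WAVE complex that drives actin branching, stood at 0.29 and 0.38 in WT-TIP60 cells and at 0.33 and 0.39 in MSCV cells, against 0.62 and 0.86. PPP3CB, a catalytic subunit of calcineurin, responds upward: its 30 nt exon stood at 0.85 and 0.79 in WT-TIP60 cells and at 0.94 and 0.88 in MSCV cells, against 0.62 and 0.5 under control siRNA. Of these 3 exons, PPP3CB alone had libraries that did not overlap between the depleted lines, with a difference of -0.09 ± 0.0354 (SE) and an adjusted p of 0.931.

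ADD3, a protein of the spectrin and actin skeleton, included its 96 nt exon at 0.64 and 0.79 in WT-TIP60 cells and at 0.72 and 0.58 in MSCV cells, against 0.22 and 0.16 under control siRNA. It rested on 44 and 14 isoform-specific reads in WT-TIP60 cells and 14 and 12 in MSCV cells, and its pairs pointed in opposite directions. AKT2, a kinase of insulin signalling, lay slightly further from control in WT-TIP60 cells, at 0.8 and 0.81, than in MSCV cells, at 0.83 and 0.87, with 0.94 and 0.97 in MSCV cells under control siRNA. The 26 nt exon of HNRNPC stood at 0.72 and 0.75 in WT-TIP60 cells and at 0.68 and 0.72 in MSCV cells, against 0.78 and 0.8. The TP53I3 exon stood at 0.85 and 0.79 in WT-TIP60 cells and at 0.87 and 0.75 in MSCV cells, against 0.96 and 0.95.

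SLC37A2, described above, and MAZ, a zinc finger transcription factor, stood nearer to control siRNA in WT-TIP60 cells. The MAZ exon of 225 nt was at 0.33 and 0.23 in WT-TIP60 cells, against 0.2 and 0.18 in MSCV cells, and at 0.33 and 0.28 in MSCV cells under control siRNA. Its difference of 0.09 ± 0.0198 (SE) had an adjusted p of 0.653 by limma, and the difference between the lines under control siRNA was 0.065.

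**Figure D3:**
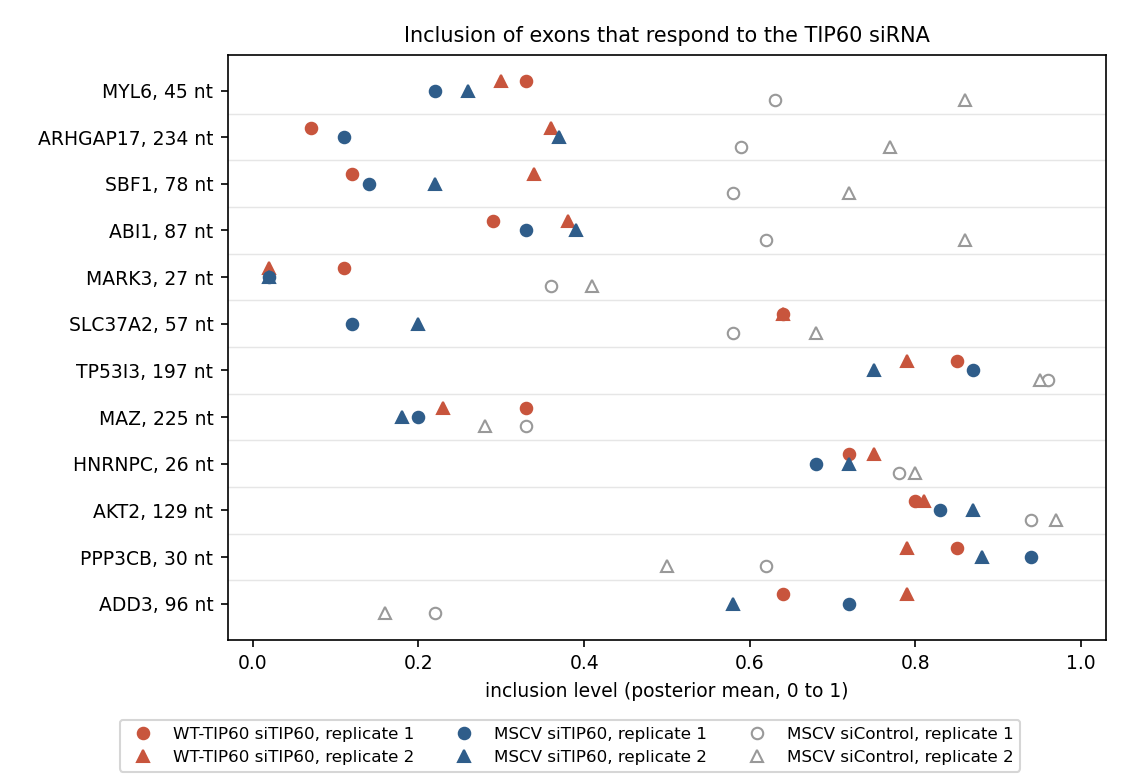
Inclusion level of exons that respond to TIP60 siRNA in KD-TIP60 cells or were described as responders for the series, in WT-TIP60 (red) and MSCV (blue) cells under TIP60 siRNA and in MSCV cells under control siRNA (open grey); each symbol is 1 library and exons run from the largest negative to the largest positive siRNA response in KD-TIP60 cells. For MARK3 both depleted lines lie between 0.02 and 0.11 and control siRNA at 0.36 and 0.41, whereas for SLC37A2 WT-TIP60 cells lie at 0.64.

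The same fit gave the effect of the wild-type copy without depletion. Under control siRNA, 0 of 3117 events (0%) passed the threshold between WT-TIP60 and MSCV cells, and 134 (4.3%) had an unadjusted p under 0.05. The difference between the construct effects under TIP60 and control siRNA was called for 0 events, and 116 (3.72%) had an unadjusted p under 0.05. For SLC37A2 the construct difference was 0.48 under TIP60 siRNA and -0.015 under control siRNA, and the test of their difference had an unadjusted p of 0.00323. For DIAPH1 the differences were 0.145 and 0, with an unadjusted p of 0.00546, and for HDAC7 they were -0.26 and 0.035, with an unadjusted p of 0.00356. None of these passed the adjustment by limma.

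Event reads, the reads that fit at least 1 form of an event, were compared as RPM as a proxy of expression. They cover the exons of an event and are not a gene count, and in bulk RNA fewer cells of a kind and less RNA per cell cannot be told apart. No event passed the threshold (limma on log2(RPM + 0.5) with the same block, adjusted over 3134 events; 0%). At an unadjusted p under 0.05 there were 267 events (8.52%), 172 higher in WT-TIP60 cells (5.49%) and 95 lower (3.03%). The libraries did not overlap for 499 events (15.9%), 292 higher (9.32%) and 207 lower (6.6%). Under control siRNA 139 of 3131 events (4.44%) had an unadjusted p under 0.05 between the lines, and the difference between the siRNAs gave 104 (3.32%); both had 0 past the threshold. The 12 genes of smallest p are described next, at adjusted p from 0.26 to 0.298, and all fold changes are on the log2(RPM + 0.5) scale.

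Among genes with more reads in WT-TIP60 cells, DBN1, the actin-binding protein drebrin, had the smallest p. It stood at 112.5 and 179 RPM in WT-TIP60 cells, against 44.3 and 63.7 RPM in MSCV cells, and at 72.6 and 133 RPM in MSCV cells under control siRNA. The log2 difference was 1.41 ± 0.22 (SE), a fold of 2.66. CLDN7, a claudin of epithelial tight junctions, stood at 540 and 412 RPM in WT-TIP60 cells, against 183.8 and 119.8 RPM in MSCV cells, a log2 difference of 1.67 and a fold of 3.17, and its difference under control siRNA was 0.64. ESRP1, an epithelial splicing regulator, stood at 428.9 and 292.5 RPM in WT-TIP60 cells and at 211.5 and 134.9 RPM in MSCV cells, and its log2 difference under control siRNA was 0.47. MSCV cells under control siRNA held 313.3 and 288.6 RPM of CLDN7 and 265.3 and 161.4 RPM of ESRP1. Depleted WT-TIP60 cells thus lay above those control values within each number. DBN1, CLDN7 and ESRP1 did not overlap between the lines under TIP60 siRNA.

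ETV4, an ETS transcription factor, stood at 67.2 and 38.7 RPM in WT-TIP60 cells, against 23.7 and 22 RPM in MSCV cells. SPINT2, an inhibitor of membrane serine proteases, stood at 403.3 and 1761.6 RPM in WT-TIP60 cells, against 250.3 and 1073.5 RPM in MSCV cells, so that the pairs agreed on the direction although the libraries overlapped. DAXX, a chaperone of histone H3.3, stood at 171.9 and 395.3 RPM in WT-TIP60 cells, against 79.1 and 235 RPM in MSCV cells. Under control siRNA, MSCV cells had 551.2 and 2976.2 RPM of SPINT2 and 271.4 and 499.7 RPM of DAXX, above the depleted MSCV libraries of the same number. CCNB1IP1, a ubiquitin ligase, was at 43 and 25.4 RPM in WT-TIP60 cells and at 5.54 and 11.4 RPM in MSCV cells, a log2 difference of 1.99, beside 1.07 under control siRNA. C6orf48 was at 475 and 620.4 RPM in WT-TIP60 cells and at 169.2 and 338.1 RPM in MSCV cells, a log2 difference of 1.18, and its difference between the same lines under control siRNA was 1.06.

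Fewer reads in WT-TIP60 cells were found for SLC37A2, TP53I3 and ACYP2. SLC37A2 stood at 434.8 and 265.8 RPM in WT-TIP60 cells, against 780 and 739.9 RPM in MSCV cells, and at 318.4 and 214.8 RPM in MSCV cells under control siRNA. Its inclusion and its reads thus both lay nearer to the control siRNA values in WT-TIP60 cells. TP53I3, a quinone oxidoreductase induced by p53, stood at 991.7 and 1336.2 RPM in WT-TIP60 cells, against 3128.4 and 2314.5 RPM in MSCV cells, with 778.8 and 636.3 RPM in MSCV cells under control siRNA. Its log2 difference was -1.22 ± 0.26 (SE), a fold of 0.428. ACYP2, an acylphosphatase, stood at 21.5 and 36.7 RPM in WT-TIP60 cells, against 83.6 and 78.8 RPM in MSCV cells. None of these 3 genes overlapped between the lines.

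**Figure D4:**
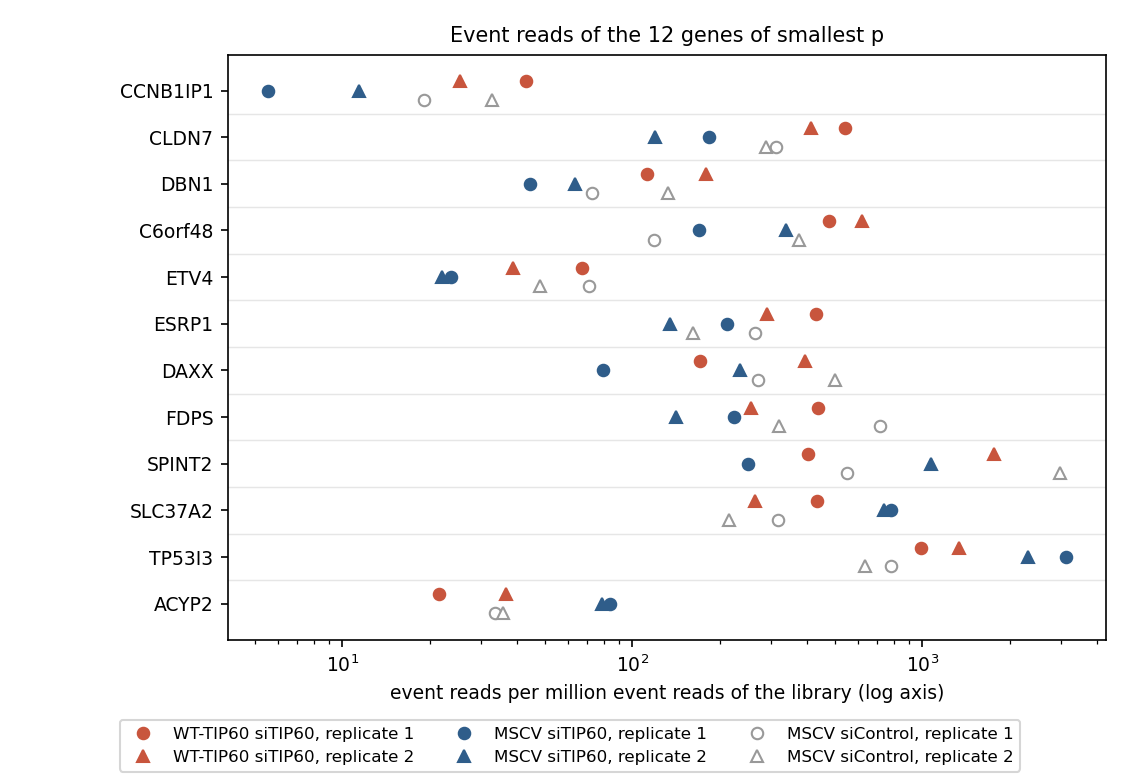
Event reads in RPM, on a logarithmic axis, for the 12 genes of smallest p in WT-TIP60 (red) and MSCV (blue) cells under TIP60 siRNA, with MSCV cells under control siRNA in open grey symbols; each symbol is 1 library. CLDN7 lies at 540 and 412 RPM in WT-TIP60 cells against 183.8 and 119.8 RPM in MSCV cells, and TP53I3 at 991.7 and 1336.2 RPM against 3128.4 and 2314.5 RPM.

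Genes whose reads responded to the siRNA in the KD-TIP60 line differed between WT-TIP60 and MSCV cells mostly toward their control siRNA level. In KD-TIP60 cells the siRNA changed the reads of 157 of 3132 events (5.01%) at an adjusted p under 0.05 by limma, and 126 of them, in 104 genes, lay on primary chromosomes. Of these 126, 114 (90.5%) differed between WT-TIP60 and MSCV cells toward control, with a median of 0.42 on the log2 scale. Over all 2948 such events the share was 69.7% and the median 0.16. The share was 87.3% in the libraries numbered 1 and 88.9% in those numbered 2, beside 67.9% and 55.7% over all events. Of 83 events with fewer reads under siRNA in KD-TIP60 cells, 73 were above 0 in WT-TIP60 relative to MSCV cells, with a median of 0.44, and of 43 with more reads, 41 were below 0, with a median of -0.4. The median change with siRNA in KD-TIP60 cells was 1.23, so that the difference between the lines was smaller than the response itself. Events of 1 gene share reads, so these events are not independent, and the list got no test of its own.

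The genes of smallest p in that list showed how far this went. MMP28, a secreted metalloproteinase, stood at 216.7 and 285.8 RPM in WT-TIP60 cells, against 410.9 and 630 RPM in MSCV cells, and at 35.8 and 65 RPM in MSCV cells under control siRNA. ABCC5, an exporter of cyclic nucleotides, stood at 141.3 and 134.2 RPM in WT-TIP60 cells, against 250.8 and 178.2 RPM in MSCV cells, with 58.2 and 48.2 RPM under control siRNA. JADE2, a subunit of a histone acetyltransferase complex, stood at 1168.1 and 1976.7 RPM in WT-TIP60 cells, against 906.3 and 1376.7 RPM in MSCV cells, with 2560.3 and 4736.7 RPM under control siRNA. In these 3 genes WT-TIP60 cells lay between depleted MSCV cells and control siRNA within each number.

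An event of CCNG1, the p53 target cyclin G1, was close to the depleted level in both lines, with 485.5 and 268.5 RPM in WT-TIP60 cells and 415.9 and 258.5 RPM in MSCV cells, against 1991 and 1044.7 RPM under control siRNA. Its log2 difference was 0.14, and that of the other responding CCNG1 event was 0.47, from 0.88 in the libraries numbered 1 and 0.06 in those numbered 2. FBLN1, the matrix protein fibulin 1, stood at 74.5 and 10.7 RPM in WT-TIP60 cells, against 42.8 and 7.58 RPM in MSCV cells, with 112.7 and 27 RPM under control siRNA. These 5 genes come from the 12 genes of smallest p in KD-TIP60 cells, a rule added after the values were seen.

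**Figure D5:**
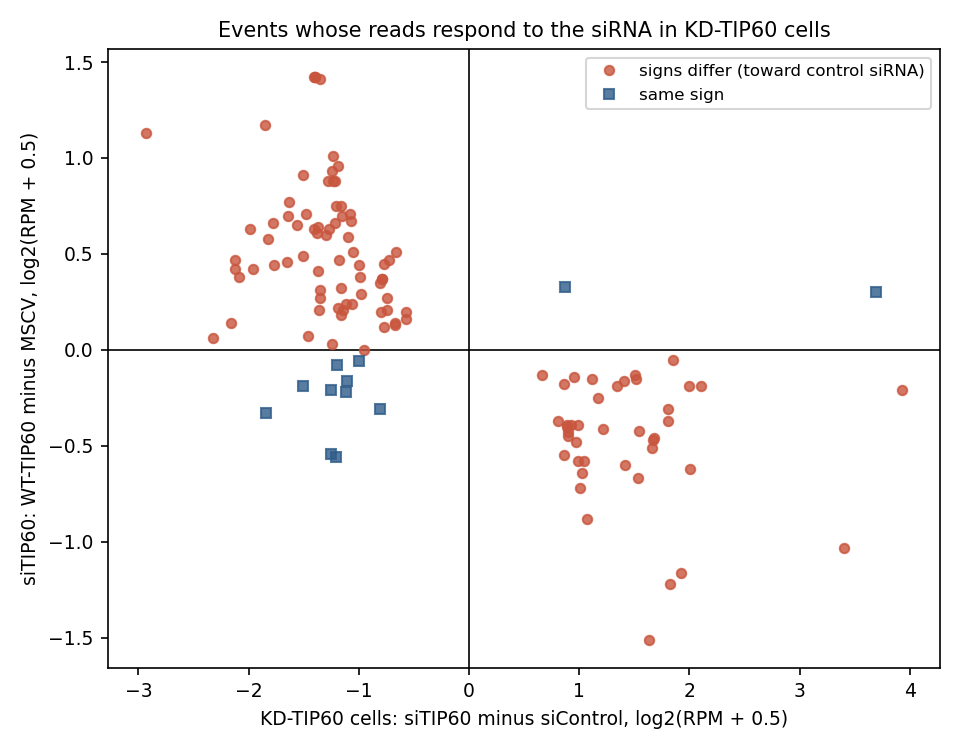
Each point is 1 of 126 events whose reads responded to TIP60 siRNA in KD-TIP60 cells, with that response on the horizontal axis and the difference between WT-TIP60 and MSCV cells under TIP60 siRNA on the vertical axis, both on the log2(RPM + 0.5) scale. For 114 events (circles) the signs differ, so that WT-TIP60 cells lie toward the control siRNA side of MSCV cells, and for 12 (squares) they are the same.

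Gene lists were read against all 2141 genes, of which 6.68% had an event at an unadjusted p under 0.05 for inclusion and 8.08% for event reads. No gene of any list passed the adjusted threshold by either measure. Of 9 tested p53 target genes, 3 had fewer reads in WT-TIP60 cells at an unadjusted p under 0.05, TP53I3, CDKN1A and GADD45A. None had more reads at that p. The median log2 difference was -0.28 over the list's 11 events, beside 0.06 over all. Of the 11 events, 5 (45.5%) were above 0, beside 57.4% of all events. CDKN1A, the cell cycle inhibitor p21, stood at 465.9 and 872.1 RPM in WT-TIP60 cells, against 932 and 1516.2 RPM in MSCV cells, with 329.6 and 724 RPM in MSCV cells under control siRNA. GADD45A, a stress-induced growth arrest gene, stood at 148.1 and 738.6 RPM in WT-TIP60 cells and at 178.8 and 1109.9 RPM in MSCV cells. The lines did not overlap for CDKN1A and did for GADD45A, where each pair still had WT-TIP60 lower. FAS, a death receptor of the same list, differed little between the lines beside its distance from control siRNA, at 36.6 and 16 RPM in WT-TIP60 cells and 39.8 and 23.5 RPM in MSCV cells, against 109.9 and 46 RPM under control siRNA.

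Of 15 lipid synthesis genes, 4 had more reads in WT-TIP60 cells at an unadjusted p under 0.05, among them FDPS, FDFT1 and SREBF1, and none had fewer. The median over the list's 21 events was 0.47, and 90.5% of them were above 0, beside 57.4% of all events. FDPS, the farnesyl diphosphate synthase of the mevalonate pathway, stood at 438 and 255.8 RPM in WT-TIP60 cells, against 224.6 and 141 RPM in MSCV cells, with 715.5 and 321.4 RPM in MSCV cells under control siRNA. FDFT1, the squalene synthase one step further, stood at 163.2 and 109.5 RPM in WT-TIP60 cells, against 68.5 and 63.7 RPM in MSCV cells, with 242.5 and 108.8 RPM under control siRNA. Neither of these events overlapped between the lines, while another FDPS event did. SREBF1, a transcription factor of these genes, stood at 110.6 and 579.6 RPM in WT-TIP60 cells, against 41.8 and 453.3 RPM in MSCV cells. Its libraries overlapped between the lines, while each pair had WT-TIP60 higher.

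Of 9 interferon response genes, 3 (IFI16, IRF3 and IFI27) had more reads at an unadjusted p under 0.05 and none had fewer, with a median of 0.43 over 21 events, 7 of them in IRF3. IFI27, a mitochondrial interferon-induced protein, stood at 72.7 and 116.2 RPM in WT-TIP60 cells, against 22.7 and 40.2 RPM in MSCV cells, but MSCV cells under control siRNA held 6.98 and 95.7 RPM. Of 19 cell cycle genes only CDK2, a kinase of S phase entry, had more reads at that p, with a median of 0.35 over 35 events. Of 22 genes of the DNA damage response, none had an unadjusted p under 0.05 for either measure. CHEK1, a checkpoint kinase, had the smallest p of that list, with 37.5 and 23.4 RPM in WT-TIP60 cells and 15.1 and 16.7 RPM in MSCV cells. Of the TIP60 complex, 3 genes were tested and none had an unadjusted p under 0.05. Scaling by median-of-ratios size factors shifted the median log2 difference of all events by -0.08.

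For inclusion, 5 of 20 chromatin genes had an event at an unadjusted p under 0.05, HDAC7, SMARCD1, SIRT3, EHMT2 and JADE2. EHMT2, the histone H3 lysine 9 methyltransferase G9a, had its 102 nt exon at 0.51 and 0.53 in WT-TIP60 cells, against 0.64 in both MSCV libraries and 0.92 and 0.88 in MSCV cells under control siRNA. SMARCD1, a subunit of the SWI/SNF remodelling complex, had its 123 nt exon at 0.92 and 0.82 in WT-TIP60 cells, against 0.82 and 0.74 in MSCV cells. In the epithelial-mesenchymal splicing programme 5 of 24 genes had such an event, SLC37A2, DST, SLK, ITGA6 and UAP1, 4 higher and 1 lower. SLK, a kinase of cytoskeletal remodelling, had its 93 nt exon at 0.28 and 0.3 in WT-TIP60 cells, against 0.15 and 0.18 in MSCV cells. In the actin and adhesion list 7 of 42 genes had one, and in the kinase and phosphatase list 5 of 26. The 7 include DST, SLK and ITGA6, which the epithelial-mesenchymal splicing programme also holds, so these counts share genes. In the apoptosis list 3 of 17 had one, CASP1 (in both directions), CFLAR and BCL2L11.

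Among proteins that act on RNA, 2 of 9 hnRNP genes, 2 of 13 other splicing regulators, 3 of 14 genes of RNA decay and translation and 0 of 8 SR protein genes had an event at an unadjusted p under 0.05 for inclusion. RBFOX2, a splicing regulator, had its 54 nt exon at 0.96 and 0.89 in WT-TIP60 cells, against 0.87 and 0.82 in MSCV cells. It rested on 39 and 15 isoform-specific reads in WT-TIP60 cells and on 16 and 11 in MSCV cells. HNRNPR had a 166 nt exon at 0.33 and 0.46 in WT-TIP60 cells, against 0.37 and 0.74 in MSCV cells. Its libraries overlapped between the lines, and its pairs differed by -0.04 and -0.28. Of 11 epithelial marker genes, ITGA6 had such an event for inclusion, and CLDN7 and ESRP1 had more reads. FN1, the mesenchymal matrix protein fibronectin, had fewer: 171.4 and 15.4 RPM in WT-TIP60 cells, against 376.6 and 135.7 RPM in MSCV cells. Its log2 difference was -2.12 ± 0.54 (SE) under TIP60 siRNA, with -1.31 without WT-TIP60 library 2, and -1.46 under control siRNA. Without depletion FN1 stood at 92.3 and 9.96 RPM in WT-TIP60 cells, against 168.5 and 43.1 RPM in MSCV cells. The libraries of the lines overlapped under either siRNA. Its adjusted p by limma was 0.298 under TIP60 siRNA and 0.999 under control siRNA. FN1 was the most abundant mesenchymal marker in 3 of the 4 libraries, and DCN, the matrix protein decorin, in WT-TIP60 library 2. DCN stood there at 160.9 RPM, above the 104.6 RPM of all listed mesenchymal genes but FN1 in MSCV library 2. Only 2 mesenchymal genes were tested, and 2 of their 5 events (40%) were above 0, beside 57.4% of all events. Whether the epithelial and mesenchymal markers have a part in the other differences was not tested.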

How the data were processed

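Exon inclusion was measured by RNA-seq in 12 libraries of MCF10A cells. Reads were aligned with STAR to hg38, per the submitters' processing notes, which name no version. What the authors deposited per event, per the file headers, is MISO's posterior mean, a fraction from 0 to 1 rounded to 2 decimals. The deposited tables also give read numbers for each form inside a text field, so limma was used and no count model across all reads. Exon annotation came from GENCODE 29.

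Levels were fitted with limma 3.58.1 (R 4.3.3) as 6 groups plus the library number, over all 12 libraries, with a variance trend on reads and the robust option. Values from the 8 other libraries were dropped where an event had under 10 isoform-specific reads, and nothing was imputed. Event reads were scaled to RPM of all event reads, and log2(RPM + 0.5) was fitted likewise. The p-values are two-sided with Benjamini-Hochberg adjustment across every tested event. The library numbers were taken as pairs. For inclusion, deviations between libraries 1 and 2 correlated at 0.706 to 0.779 across events between all 15 pairs of groups. For event reads the range was wider, from 0.559 to 0.933. The fits were tested on simulated data.

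The comparison, gene lists and tests were chosen with earlier results of these data known. Named exons were the 20 of smallest p with no overlap between the groups and the 12 genes of smallest p for event reads, since none passed the threshold, plus the event of smallest p of each list, the siRNA responders of KD-TIP60 cells and exons already described for the series. Exons named from the read model, and members of lists other than that of smallest p, were chosen after their values were seen. Some genes that these rules name are not reported here. The 18 lists held the TIP60 complex, the epithelial-mesenchymal splicing programme, SR, hnRNP and other splicing proteins, DNA damage, p53 targets, apoptosis, chromatin, cell cycle, actin and adhesion, kinases, RNA decay, lipid synthesis, interferon, and epithelial, mesenchymal and immune markers; no immune marker had a tested event. Alternatives covered the block, libraries, read minimum, scale, model, pseudocount and scaling.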

Additional observations from a re-analysis of the deposited data

How the results depend on the processing

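No event passed the threshold for inclusion between WT-TIP60 and MSCV cells without the replicate block (0 events; 84 at an unadjusted p under 0.05), on the 4 libraries alone, with 20 or no minimum reads, or on log2 odds. The share of isoform-specific reads called 1 (BCL2L13) and the quasi-binomial model 12 (204 at an unadjusted p under 0.05); its differences for the named exons were 0.522 in SLC37A2, 0.135 in MAZ, -0.0944 in ERP29, 0.0921 in DIAPH1 and 0.0695 in ITGA6. Leaving out each library in turn gave 0 to 1 calls; the call was CHP1, without MSCV library 2 under TIP60 siRNA. Under control siRNA the share of reads called 4 and leaving out libraries gave 0 to 18, with 18 without MSCV library 1 under control siRNA. The difference between the siRNAs gave 1 with the share of reads and 0 to 10, again with that library left out. The KD-TIP60 list of 10 exons held 1 without the replicate block, 28 on log2 odds, 26 with the share of reads, and 0 to 22 without single libraries: 0 without KD-TIP60 control library 1, 2 and 3 without KD-TIP60 control and TIP60 siRNA library 2, 22 without KD-TIP60 siRNA library 1, and 5 or 6 without a WT-TIP60 library. The number of its exons toward control ran from 5 to 7. Separated events numbered 130 at a gap of 0.05 and 6 at 0.2.

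For event reads, with no read minimum 1 event was called, and without single libraries 0 to 1 under either siRNA; under TIP60 siRNA the call was KAT5 in both cases. Of the 126 responding events, 107 to 114 lay toward control without single libraries, 110 with median-of-ratios factors and 112 with voom. A minimum of 20 reads left 108 of them, 99 of which lay toward control. Without single libraries, FN1 reads ran from -2.92 to -1.31, CDK2 reads from 0.228 to 1.76, WBP2 inclusion from 0.069 to 0.151 and ITGA6 inclusion from 0.073 to 0.217.

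Small differences changed sign: ADD3 to -0.0244 with the share of reads, -0.0762 with the quasi-binomial model and between -0.027 and 0.157 without single libraries (-0.027 without WT-TIP60 library 2, -0.017 without MSCV library 2); MORF4L2 to -0.0192 and -0.0141 in those models; TP53I3 inclusion to -0.000387 in the quasi-binomial model and between -0.035 (without MSCV library 2) and 0.055; SBF1 between -0.006 (without that library) and 0.106; MARK3 between -0.014 and 0.104, and FN1 inclusion between -0.222 and 0.022, where -0.014 and 0.022 came without WT-TIP60 library 1. The cause was not tested. Depth limits exons with few reads, such as ADD3, HDAC7, GNE and RBFOX2.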

Other observations

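Some events of ZFAS1, LRRC75A-AS1 and C6orf48, host genes of small nucleolar RNAs, were more abundant in WT-TIP60 cells under both siRNAs. These genes were picked after their values were seen, and other events of them overlapped between the lines. ZFAS1, a non-coding host gene, stood at 489.2 and 404.7 RPM in WT-TIP60 cells, against 266.9 and 294.9 RPM in MSCV cells under TIP60 siRNA, and at 382.2 and 363.4 RPM in WT-TIP60 cells, against 220.2 and 264.5 RPM in MSCV cells under control siRNA. Its log2 differences were 0.66 and 0.63, and neither passed the threshold. The most abundant event of LRRC75A-AS1 stood at 3533.2 and 4742.6 RPM in WT-TIP60 cells, against 2909.4 and 3520.6 RPM in MSCV cells under TIP60 siRNA, and at 2751.1 and 3925.9 RPM in WT-TIP60 cells, against 1813.1 and 2843.2 RPM in MSCV cells under control siRNA. C6orf48, given above, had log2 differences of 1.18 under TIP60 siRNA and 1.06 under control siRNA. Depleted KD-TIP60 cells held 367 and 469.5 RPM of ZFAS1 and 3055 and 4169.2 RPM of that LRRC75A-AS1 event.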
